A study of Homo sapiens with 36 samples.

Results

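The genes described here are 30 genes of cholesterol and fatty acid synthesis and export and were taken by symbol from a list drawn up with earlier results of these data known. For each symbol the transcript with the highest mean count over the libraries stood for the gene. All 30 were among the 19137 symbols counted. They comprise 7 genes of the early sterol pathway, 10 genes of the late pathway, 4 regulators and carriers of sterols, 7 genes of fatty acid synthesis and 2 cholesterol exporters.

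Cells make cholesterol from acetyl-CoA by way of mevalonate, farnesyl diphosphate, squalene and lanosterol, and make fatty acids from the same acetyl-CoA by way of malonyl-CoA. The transcription factors SREBP1 and SREBP2 (genes SREBF1 and SREBF2) leave the endoplasmic reticulum when sterol is scarce and turn on the genes of both pathways, while INSIG1 holds them back there when sterol is plentiful. The exporters ABCA1 and ABCG1 pass cholesterol out of the cell and are classic targets of the oxysterol-sensing LXR receptors, so in textbook physiology synthesis and export move in opposite directions.

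Footprint libraries hold the stretches of messenger RNA covered by ribosomes, and RNA libraries measure the messages themselves. MCF10A-ER-Src is a human breast epithelial line with a Src kinase that 4-hydroxytamoxifen switches on through an oestrogen receptor domain. These cells were grown in charcoal-stripped serum and given tamoxifen (TAM) at 1 µM for 1, 4 or 24 h, or ethanol (EtOH), the vehicle, for the same times, and 1 set of libraries was taken at 0 h. BJ is a human skin fibroblast line, and its derivatives are labelled ELR, EL and EH. What the letters stand for is left unsaid in the labels. As background, BJ series of this kind add telomerase, then the SV40 early region, then an oncogenic HRAS, so that telomerase would be shared by all 3 lines. The labels do not say that replicates come from separate cultures, so p-values measure the spread between these libraries, which may be technical.

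Under cycloheximide, which stalls elongating ribosomes, TAM had 2 libraries at each of 1, 4 and 24 h, EtOH 24 h had 1, and the other uninduced arm had 3, namely 0 h (replicate 1), EtOH 1 h and EtOH 4 h (both replicate 2). Within that arm the vehicle cannot be told apart from the replicate number, and EtOH 24 h stands on 1 footprint and 1 RNA library. ER-Src RNA had 1 library for each time and agent, and harringtonine, which holds ribosomes at start codons, had 1 library at each of 0, 1, 4 and 24 h of TAM. Each BJ line had 2 cycloheximide, 2 harringtonine and 1 RNA library. Total counts were 1334866 to 3628073 in the ER-Src and 1178012 to 2606344 in the BJ cycloheximide libraries, 2071883 to 3008760 in all RNA libraries and 129175 to 374359 in the harringtonine libraries. The biological coefficient of variation was 12.1% between ER-Src cycloheximide libraries of an arm and 1.8% between BJ ones, where replicates differed barely beyond sampling noise. FDPS has 8 named pseudogenes, IDI1 and CYP51A1 have 3 each, HSD17B7 has 2 and SCD has 1, and 15 of the 30 genes share exon bases with a gene on the other strand, among them ACAT2 with TCP1 over 454 bases and HMGCS1 with a long noncoding RNA over 2497 bases. CYP51A1 and EBP also share exon bases with another gene on the same strand, over 2827 and 642 bases, which no strand setting would separate. The sources used here do not say whether counting used strand, so these levels are uncertain. Epithelial markers summed to 11230 to 21640 CPM (counts per 1000000 counted in a library, after scaling between libraries) in ER-Src footprints. In BJ footprints they summed to 804.3 to 1058 CPM, and KRT5, KRT6A, CDH1 and TP63 were at 0. Fibroblast markers summed to 11090 to 44880 CPM in BJ and to 1041 to 1786 CPM in ER-Src footprints, where COL1A2, COL3A1, COL5A1 and THY1 were at 0. Adipocyte markers, a cell type rich in these enzymes, summed to at most 1.51 CPM in any footprint library. HRAS had 138.7 to 153.3 CPM in ELR, 33.1 to 33.7 CPM in EL and 26.1 to 28.8 CPM in EH footprints.

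Promoter sequence was examined because these genes are textbook targets of shared factors. The 250 bases before the RefSeq start site were taken from the RefSeq promoter table of GRCh38.p14 and placed by an exact match on GRCh37. The table had entries for 25 of the 30 genes, and 24 of these matched GRCh37. Each gene had 1 window, which was not matched to the transcript counted. On both strands, the letters CCAAT, the box bound by the factor NF-Y, occurred in 16 of 25 promoters (64.0%), against 34.6% of the promoters of 13994 counted genes. They occurred in 7 of 8 late sterol, 4 of 6 early sterol, 3 of 4 regulator and carrier and 2 of 6 fatty acid promoters. The strict sterol regulatory element TCACNCCAC occurred in 1 of 25 (4.0%), that of SREBF2, against 0.893% of all. This motif allows no mismatch, and its absence from a window says only that these letters are not there. A match is a description of the letters and not evidence of binding.

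Sequences of 6 promoters follow, 5′ to 3′ along the gene, with CCAAT on either strand (ATTGG on the printed one) and the sterol element in capitals. SREBF2 (chr22:42228859-42229108, plus strand) is shown as the single promoter with both motifs, its sterol element beginning 133 bases and its CCAAT box 106 bases before the start. HMGCS1 (chr5:43313515-43313764, minus strand), MSMO1 (chr4:166248571-166248820, plus strand) and HSD17B7 (chr1:162760242-162760491, plus strand) belong to sterol genes that were higher after 24 h of TAM. EBP (chrX:48379946-48380195, plus strand) belongs to a sterol gene that was not called at that time and has 3 CCAAT boxes. ABCA1 (chr9:107690437-107690686, minus strand) has neither motif and had the largest change of the set in TAM-treated cells.
SREBF2: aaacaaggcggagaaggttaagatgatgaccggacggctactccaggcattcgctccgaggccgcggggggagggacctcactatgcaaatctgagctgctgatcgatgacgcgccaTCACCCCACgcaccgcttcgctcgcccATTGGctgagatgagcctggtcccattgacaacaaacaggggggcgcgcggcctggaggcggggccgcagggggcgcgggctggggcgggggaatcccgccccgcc
HMGCS1: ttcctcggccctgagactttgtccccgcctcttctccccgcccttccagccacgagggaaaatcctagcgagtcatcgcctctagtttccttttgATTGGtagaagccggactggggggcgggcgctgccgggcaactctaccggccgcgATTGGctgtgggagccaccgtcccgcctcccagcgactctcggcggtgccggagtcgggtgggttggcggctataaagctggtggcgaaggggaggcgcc
MSMO1: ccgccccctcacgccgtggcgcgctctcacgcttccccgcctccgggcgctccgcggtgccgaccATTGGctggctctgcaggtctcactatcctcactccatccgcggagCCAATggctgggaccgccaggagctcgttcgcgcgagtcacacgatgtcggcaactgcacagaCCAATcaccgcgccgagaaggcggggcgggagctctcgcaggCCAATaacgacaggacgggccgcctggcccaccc
HSD17B7: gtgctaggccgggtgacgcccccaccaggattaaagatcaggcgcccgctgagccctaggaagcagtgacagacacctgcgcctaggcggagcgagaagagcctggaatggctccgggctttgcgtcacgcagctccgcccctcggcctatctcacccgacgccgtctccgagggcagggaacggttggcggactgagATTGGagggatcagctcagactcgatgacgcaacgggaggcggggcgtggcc
EBP: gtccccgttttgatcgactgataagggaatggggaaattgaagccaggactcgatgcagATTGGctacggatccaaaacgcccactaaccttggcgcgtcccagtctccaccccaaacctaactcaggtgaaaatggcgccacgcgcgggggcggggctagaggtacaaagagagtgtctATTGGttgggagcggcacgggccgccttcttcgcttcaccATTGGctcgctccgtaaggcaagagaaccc
ABCA1: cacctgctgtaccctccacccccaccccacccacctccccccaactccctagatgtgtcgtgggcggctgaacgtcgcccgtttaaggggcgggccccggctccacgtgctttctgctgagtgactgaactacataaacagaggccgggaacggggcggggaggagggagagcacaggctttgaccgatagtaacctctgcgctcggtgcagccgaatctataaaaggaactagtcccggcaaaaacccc

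CCAAT letters were thus found both in promoters of sterol genes that changed with TAM and in those of genes that were not called. MSMO1 has 4 boxes, HMGCS1 has 2 and HSD17B7 has 1. MVK, a mevalonate pathway kinase, and NSDHL, a late demethylation enzyme, have the most with 5 matches each, in the window of MVK at 210, 157, 94, 79 and 46 bases before the start. In NSDHL the matches at 113 and 110 bases share letters, being 1 stretch read on both strands. The window of FADS2, a fatty acid desaturase that was higher after 24 h of both agents, has none. Those of IDI1 and CYP51A1, sterol genes called higher at TAM 24 h, have none either. The IDI1 window (chr10:1102645-1102894, minus strand) lies upstream of the gene's span of 1085092 to 1095059. That of FADS2 (chr11:61583425-61583674, plus strand) lies inside the gene's span of 61560452 to 61634826. Other start sites of these genes were not searched.

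Set per kilobase of coding length, so that genes can be compared, footprints of the other uninduced ER-Src libraries were densest on FDPS, the farnesyl diphosphate synthase, with 345.3 ± 21.4 CPM per kb (SD, n = 3). SCD, the stearoyl-CoA desaturase, had 319.5 ± 7.94 CPM per kb and EBP, a sterol isomerase, had 241.2 ± 25.7 CPM per kb in the same libraries. The FDPS mean lay above the SCD mean by more than either SD, while EBP and the next gene in order, FDFT1, with 219.5 ± 26.9 CPM per kb, did not differ beyond theirs. ABCA1 was the sparsest of the genes with footprints in all 3 libraries, at 0.0881 ± 0.0307 CPM per kb, and TM7SF2, a sterol reductase, had 0.953 ± 0.333 CPM per kb. In EH fibroblasts FDPS was also densest, with 159.3 ± 19.0 CPM per kb (SD, n = 2), followed by ACLY, the citrate-cleaving enzyme that supplies acetyl-CoA, with 146.5 ± 7.60 CPM per kb, and the 2 do not differ beyond their spread. SCD had 38.6 ± 2.14 CPM per kb in EH. ABCG1 had no count in any BJ library. A count of 0 allows up to 3 counts, which is 1.15 to 2.55 CPM in the BJ cycloheximide libraries. This limit was taken on library totals without scaling between libraries, and it covers counting error only.

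In ER-Src cells, most sterol genes and several fatty acid genes had more footprints after 24 h of TAM. None of either was called at 1 or 4 h, when only 0.0573% and 0.812% of all genes tested were. At 24 h 19 of the 29 genes tested were called higher than in the other uninduced libraries and 0 lower, 12 of them among the 16 sterol genes tested. ABCA1 was higher by 5.27 on the log2 scale, HSD17B7 by 1.85, MSMO1 by 1.39 and INSIG1 by 1.11. The median log2 change of the 29 was 0.62, against 0.003 over all genes tested. Of all genes tested, 11.1% were called higher and 8.28% lower (edgeR quasi-likelihood test, adjusted p under 0.05, which is the rule for a call throughout). Without adjustment, 20 of the 29 were higher and 1 was lower at p under 0.05, and DESeq2 called 16 higher and 0 lower.

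HMGCS1, which makes HMG-CoA (NM_001098272, chromosome 5, 43287572 to 43313614), had 165.8 and 206.3 CPM at TAM 24 h, 122.1 CPM at EtOH 24 h and 95.2, 95.3 and 99.7 CPM at 0 h, EtOH 1 h and EtOH 4 h. Both TAM libraries lay above all 4 uninduced ones. The log2 change against the other uninduced libraries was 0.95 ± 0.14 (SE, edgeR quasi-likelihood adjusted p = 0.000115). IDI1, the isopentenyl diphosphate isomerase, had 234.5 and 290.2 CPM at TAM 24 h, 220.5 CPM at EtOH 24 h and 147.3, 164.3 and 154.9 CPM in the other uninduced libraries. Its TAM 24 h and EtOH 24 h libraries were all above the other 3, and the change for TAM was 0.76 ± 0.13 (SE). FDPS had 774.6 and 862.3 CPM at TAM 24 h, 650.6 CPM at EtOH 24 h and 444.1, 403.6 and 454.6 CPM in the other uninduced libraries. The groups did not overlap, and the TAM change was 0.92 ± 0.12 (SE, edgeR quasi-likelihood adjusted p = 4.84e-05). Of the other early genes MVD, the mevalonate diphosphate decarboxylase, rose by 1.04 and MVK by 0.69, while ACAT2, which joins acetyl-CoA units, changed by 0.42 and PMVK, the phosphomevalonate kinase, by 0.03, neither of them called.

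In the late pathway MSMO1, a C4 methylsterol oxidase (NM_006745, chromosome 4, 166248819 to 166264316), had 411.4 and 358.2 CPM at TAM 24 h, 261.8 CPM at EtOH 24 h and 159.4, 133.5 and 149.8 CPM in the other uninduced libraries. These 3 groups were fully separate, with TAM highest and EtOH 24 h between. The TAM change was 1.39 ± 0.14 (SE, edgeR quasi-likelihood adjusted p = 4.53e-06). HSD17B7, a sterol ketoreductase (NM_016371, chromosome 1, 162760492 to 162782613), had 37.7 and 32.9 CPM at TAM 24 h, 10.8 CPM at EtOH 24 h and 7.55, 8.11 and 12.6 CPM in the other uninduced libraries. EtOH 24 h lay within the range of the other uninduced libraries, and TAM 24 h stood above all of them by a log2 change of 1.85 ± 0.26 (SE). HSD17B7 has 2 named pseudogenes whose reads the counting may have shared, so its level is uncertain. CYP51A1, the lanosterol demethylase, had 397.2 and 369.7 CPM at TAM 24 h, 312.0 CPM at EtOH 24 h and 213.8, 223.1 and 209.4 CPM in the other uninduced libraries. Here too the groups did not overlap. DHCR7, the last reductase of the pathway, rose by 0.83, SQLE, the squalene epoxidase, by 0.55, LSS, which closes the ring to lanosterol, by 0.55 and FDFT1, the squalene synthase, by 0.53. NSDHL at 0.30 and EBP at -0.002 were not called.

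Among regulators, INSIG1 (NM_005542, chromosome 7, 155089486 to 155101945) had 52.0 and 43.8 CPM at TAM 24 h, 35.8 CPM at EtOH 24 h and 29.5, 20.3 and 18.8 CPM in the other uninduced libraries. Its 3 groups did not overlap, and the TAM change was 1.11 ± 0.20 (SE). SREBF2 rose by 0.68, while SREBF1, whose product mainly drives fatty acid genes, changed by -0.27 and STARD4, a sterol carrier, by -0.10, neither of them called. Of the fatty acid genes FADS2 (NM_004265, chromosome 11, 61560452 to 61634826) had 97.8 and 114.8 CPM at TAM 24 h, 117.3 CPM at EtOH 24 h and 60.4, 49.4 and 49.1 CPM in the other uninduced libraries. The 24 h libraries of both agents lay together above the rest, and the TAM change was 1.03 ± 0.15 (SE). SCD rose by 0.72, FASN, the fatty acid synthase, by 0.62 and FADS1, another desaturase, by 0.57. ACLY at 0.16, ACACA, the acetyl-CoA carboxylase, at 0.24 and ELOVL6, which lengthens palmitate, at -0.39 were not called.

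ABCA1 (NM_005502, chromosome 9, 107543287 to 107690436) had 25.4 and 22.6 CPM at TAM 24 h, 0.263 CPM at EtOH 24 h and 0.755, 0.676 and 0.361 CPM in the other uninduced libraries. TAM 24 h stood apart from every other ER-Src footprint library, since TAM 1 h had 0.69 and 0 CPM and TAM 4 h had 1.72 and 0.623 CPM. The log2 change against the other uninduced libraries was 5.27. ABCA1 passed the filter on low counts only through TAM 24 h, since every other ER-Src footprint library held 0 to 3 counts. Its footprint calls at TAM 24 h, 1 of them among the 19, are therefore not separate support for the rise. ABCG1 had 22.3 and 16.6 CPM at TAM 24 h, 26.3 CPM at EtOH 24 h and 24.9, 23.7 and 17.0 CPM in the other uninduced libraries, which overlap, and its change of -0.19 was not called. TM7SF2 had 0 to 3.29 CPM in these 10 libraries and was not tested. Summed epithelial markers, whose part in these results was not tested, were 19260 to 21640 CPM at TAM 24 h, 11230 CPM at EtOH 24 h and 14610 to 16140 CPM in the other uninduced libraries. Summed fibroblast markers were 1041 to 1044 CPM at TAM 24 h, 1538 CPM at EtOH 24 h and 1488 to 1786 CPM in the other uninduced libraries, and their part was not tested. Summed leukocyte markers were 123.5 to 151.6 CPM at TAM 24 h, 68.1 CPM at EtOH 24 h and 53.8 to 74.0 CPM in the other uninduced libraries, with PTPRC, CD3E and LYZ at 0 in all ER-Src footprint libraries. With EtOH 24 h pooled into the uninduced arm, 10 of 29 genes were called higher in place of 19.

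**Figure D1:**
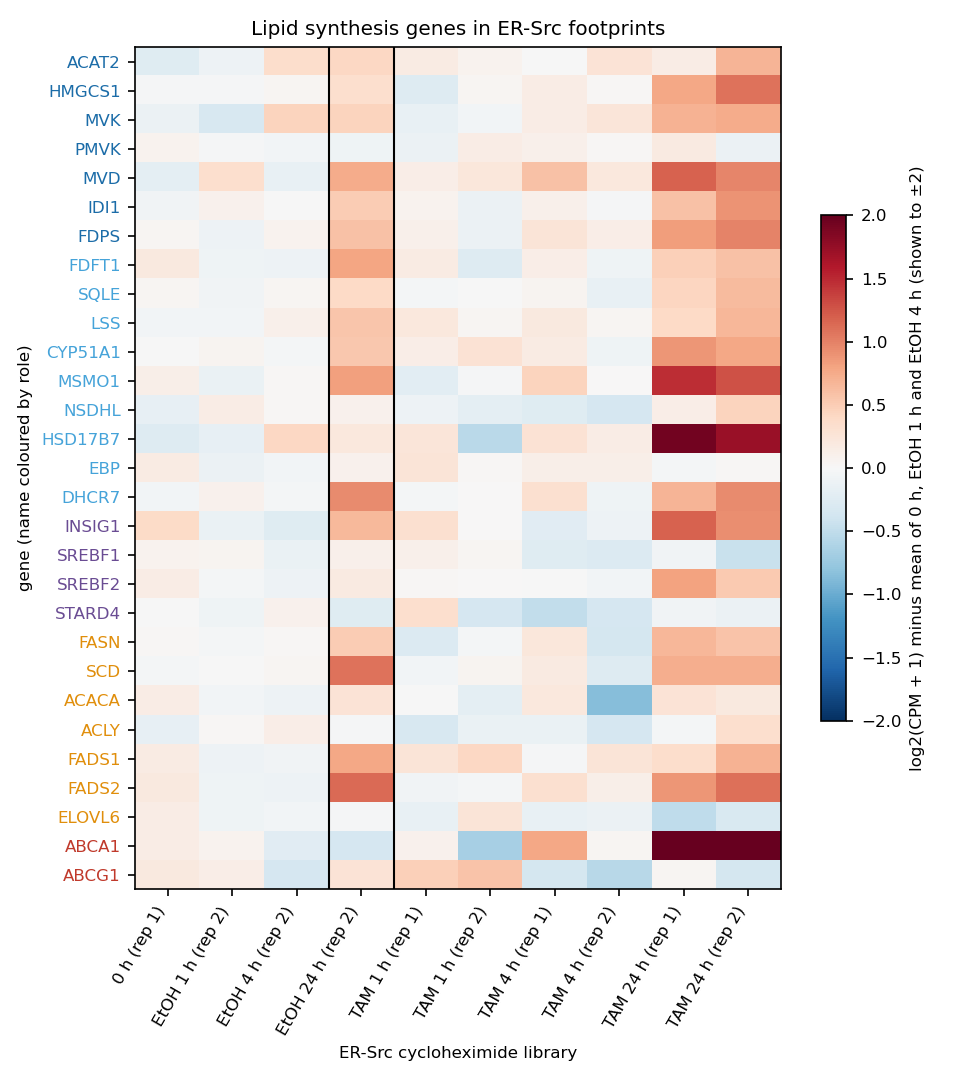
Log2(CPM + 1) of 29 genes (rows, names coloured by role: early sterol dark blue, late sterol light blue, regulators and transport purple, fatty acid orange, efflux red) in the 10 ER-Src cycloheximide libraries (columns), minus the mean of 0 h, EtOH 1 h and EtOH 4 h, with colours ending at ±2; TM7SF2 is left out. The EtOH 24 h column, boxed, and the 2 TAM 24 h columns are red across most sterol genes, and ABCA1 is red at TAM 24 h and not at EtOH 24 h.

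At the earlier times the same test called 0 of 29 genes at TAM 1 h, where 0.0573% of all genes tested were called, and 0 of 29 at TAM 4 h, where 0.812% were. Without adjustment 1 gene was at p under 0.05 at 1 h and 0 at 4 h, and DESeq2 called 0 at both times. The gene at 1 h was ABCG1, with 30.4 and 32.4 CPM at TAM 1 h against 24.9, 23.7 and 17.0 CPM in the other uninduced libraries. Summed CPM of the 17 sterol genes were 2119, 2011 and 2115 in the other uninduced libraries, 2171 and 2050 at TAM 1 h, 2345 and 2113 at TAM 4 h, and 3332 and 3587 at TAM 24 h. The sum at EtOH 24 h was 3017. The sums thus overlapped up to 4 h and did not at 24 h.

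EtOH 24 h, a vehicle control, was set against the other uninduced libraries. MSMO1, DHCR7, SCD and FADS2 were called, 4 of 29 higher and 0 lower, with log2 changes of 0.83 to 1.17. Of all genes tested, 0.392% were called higher and 0.296% lower. The median change was 0.40 over the 29 genes, 0.45 over sterol and 0.51 over fatty acid genes, against -0.01 over all genes tested. Without adjustment 14 were higher and 0 lower at p under 0.05, and DESeq2 called 6 higher and 0 lower. Of the 27 genes with a mean of at least 10 CPM, 20 were higher at EtOH 24 h than in every other uninduced library and 2 were lower than in every one, where 27.3% and 29.2% of all such genes were.

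SCD (NM_005063, chromosome 10, 102106990 to 102124583) had 734 CPM at EtOH 24 h against 336.1, 343.1 and 353.1 CPM at 0 h, EtOH 1 h and EtOH 4 h. The EtOH 24 h library was above all 3, and it was also above the TAM 24 h libraries with 567.3 and 568.1 CPM. The change was 1.09 ± 0.16 (SE, edgeR quasi-likelihood adjusted p = 0.00484). FADS2, given above, changed by 1.17 ± 0.17 (SE, edgeR quasi-likelihood adjusted p = 0.00484). DHCR7 had 163.1 CPM at EtOH 24 h against 80.8, 89.6 and 81.6 CPM, again with no overlap, and 134.9 and 163.1 CPM at TAM 24 h. Its change was 0.95 ± 0.17 (SE, edgeR quasi-likelihood adjusted p = 0.0162), and that of MSMO1 was 0.83 ± 0.17 (SE, edgeR quasi-likelihood adjusted p = 0.0343). FDPS at 0.58 ± 0.15, INSIG1 at 0.71 ± 0.24 and FDFT1 at 0.79 ± 0.17 (SE) were not called, nor was ABCG1 at 0.29 ± 0.25. ABCA1 had 1 count at EtOH 24 h and 4 counts in the other 3 libraries together, a ratio of 0.464 with a 95% counting interval of 0.00942 to 4.69. The count of calls was 7 with no filter or with scaling to total counts and 2 without the EtOH 4 h library. The EtOH 24 h library has no replicate, and its spread was taken from the other arms.

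**Figure D2:**
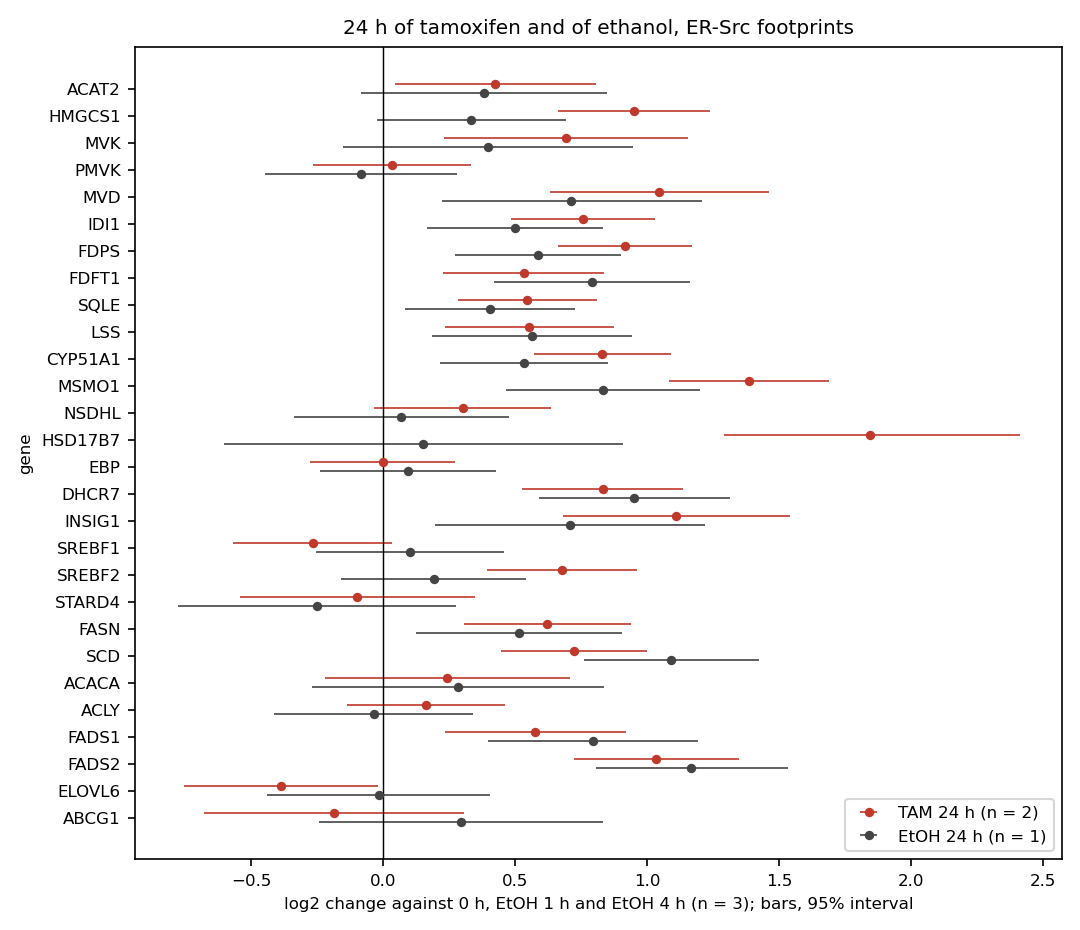
Log2 change of 28 genes in ER-Src cycloheximide footprints after 24 h of TAM (red, 2 libraries, drawn above) and of EtOH (grey, 1 library, drawn below), each against 0 h, EtOH 1 h and EtOH 4 h, with 95% intervals; ABCA1 (5.27 for TAM) and TM7SF2 are left out. The intervals of both agents overlap for most genes and are apart for HSD17B7, at 1.85 for TAM and 0.15 for EtOH.

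Both 24 h comparisons share their 3 control libraries, so TAM 24 h was also tested directly against EtOH 24 h. Of 29 genes 3 were called higher and 0 lower, namely ABCA1, HSD17B7 and HMGCS1, where 5.57% of all genes tested were called higher and 1.97% lower. Without adjustment 5 were higher and 1 was lower at p under 0.05, and DESeq2 called 2 higher and 0 lower. ABCA1 had 116 counts in the 2 TAM 24 h libraries and 1 at EtOH 24 h, a ratio of 89.5 with a 95% counting interval of 15.8 to 3564. HSD17B7 was higher by 1.69 ± 0.34 (SE, edgeR quasi-likelihood adjusted p = 0.00504). HMGCS1 was higher by 0.62 ± 0.18 (SE, edgeR quasi-likelihood adjusted p = 0.0492), a call that 8 of 15 alternative settings lost. SREBF2 at 0.49 (95% interval 0.11 to 0.86) was not called, and SCD at -0.37 had an interval of -0.73 to -0.01. The interval ran from -0.51 to 0.27 for DHCR7, from -0.52 to 0.25 for FADS2 and from -0.32 to 0.53 for FASN. These intervals take the spread of the single EtOH 24 h library from other arms, and they do not show that the agents act alike. The median over the 16 sterol genes was 0.24 and over the 7 fatty acid genes -0.13.

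RNA was compared in the same way at 24 h, with 1 library for each agent. At TAM 24 h 17 of 29 were called higher and 0 lower than in the other uninduced RNA libraries, where 8.95% of all genes tested were called higher and 6.06% lower. Without adjustment 19 were higher and 0 lower, and DESeq2 called 9 higher and 0 lower. The median was 0.73 over the 29 genes and -0.01 over all genes. With EtOH 24 h pooled into the uninduced arm, 5 genes were called in place of 17. At EtOH 24 h 8 of 29 were called higher and 0 lower, where 1.31% and 1.57% were, with a median of 0.51 against -0.02 over all genes. Without adjustment 18 were higher and 0 lower there, and DESeq2 called 3 higher and 0 lower. These comparisons again share the same 3 controls.

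ABCA1 RNA was 93.7 CPM at TAM 24 h, 1.59 CPM at EtOH 24 h and 0, 1.04 and 0 CPM at 0 h, EtOH 1 h and EtOH 4 h. The TAM 24 h library held 261 counts and the 3 others together 3, a ratio of 246.5 with a 95% counting interval of 83.4 to 1203. FDPS RNA was 716.6 CPM at TAM 24 h, 435.3 CPM at EtOH 24 h and 288.3, 318.8 and 310.8 CPM in the others. All 3 groups were separate, with log2 changes of 1.23 ± 0.12 for TAM and 0.51 ± 0.12 for EtOH (SE). HSD17B7 RNA was 42.4 CPM at TAM 24 h, 19.5 CPM at EtOH 24 h and 5.97, 9.72 and 7.22 CPM in the others. Unlike its footprints, its RNA at EtOH 24 h lay above the range of the others, with a change of 1.33 ± 0.38 (SE, edgeR quasi-likelihood adjusted p = 0.0507) that was not called.

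SCD RNA was 437.1 CPM at TAM 24 h, 556.2 CPM at EtOH 24 h and 245.8, 246.5 and 264.7 CPM in the others, so that EtOH 24 h was again the highest. Its changes were 0.79 ± 0.12 for TAM and 1.14 ± 0.12 for EtOH (SE). FASN RNA was 561.4 CPM at TAM 24 h, 571.3 CPM at EtOH 24 h and 291.9, 334.7 and 291.9 CPM in the others, the 24 h libraries lying together above the rest. FADS2 RNA was 80.1 CPM at TAM 24 h, 81.5 CPM at EtOH 24 h and 26.6, 42.0 and 46.1 CPM in the others, with the same separation. FDFT1 RNA at EtOH 24 h was 361.4 CPM against 149.9, 192.4 and 196.9 CPM, a change of 1.01 ± 0.14 (SE, edgeR quasi-likelihood adjusted p = 5.86e-05). In EtOH 24 h RNA, ACACA, SQLE and MSMO1 were called as well, with changes of 0.60, 0.47 and 0.72, and SREBF2 at 0.49 and ABCG1 at 0.69 were not. CYP51A1 RNA was 24.1 CPM at TAM 24 h, 19.1 CPM at EtOH 24 h and 20.3, 16.3 and 22.1 CPM in the others. Unlike its footprints, CYP51A1 RNA at EtOH 24 h thus lay within the range of the others. HMGCS1 RNA was 246.8 CPM at TAM 24 h, 178.1 CPM at EtOH 24 h and 119.3, 142.7 and 115.1 CPM in the others, all 3 groups separate, and its TAM change was 0.97 ± 0.15 (SE). INSIG1 RNA was 43.8 CPM at TAM 24 h, 35.8 CPM at EtOH 24 h and 25.9, 20.5 and 10.4 CPM in the others, with a TAM change of 1.21 ± 0.31 (SE, edgeR quasi-likelihood adjusted p = 0.00796). These calls rest on few libraries. Without the EtOH 1 h library EtOH 24 h had 0 calls and TAM 24 h had 9, and without the EtOH 4 h library EtOH 24 h had 14.

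Directly between the agents, TAM 24 h against EtOH 24 h, RNA gave 2 of 29 calls higher and 0 lower, where 4.37% and 1.38% of all genes were called. Without adjustment 6 were higher and 3 lower, and DESeq2 called 1 higher and 0 lower. The 2 were ABCA1 and FDPS, and FDPS had a change of 0.72 ± 0.15 (SE, edgeR quasi-likelihood adjusted p = 0.00203). HSD17B7 at 1.12, SREBF1 at -0.32 and ACACA at -0.40 were not called. ABCA1 at 5.84 was called with edgeR and not with DESeq2. In RNA too it passed the filter on low counts only through TAM 24 h, the other ER-Src RNA libraries holding 0 to 4 counts. Without the EtOH 4 h library 6 genes were called, 5 higher and 1 lower, and without the EtOH 1 h library 1.

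**Figure D3:**
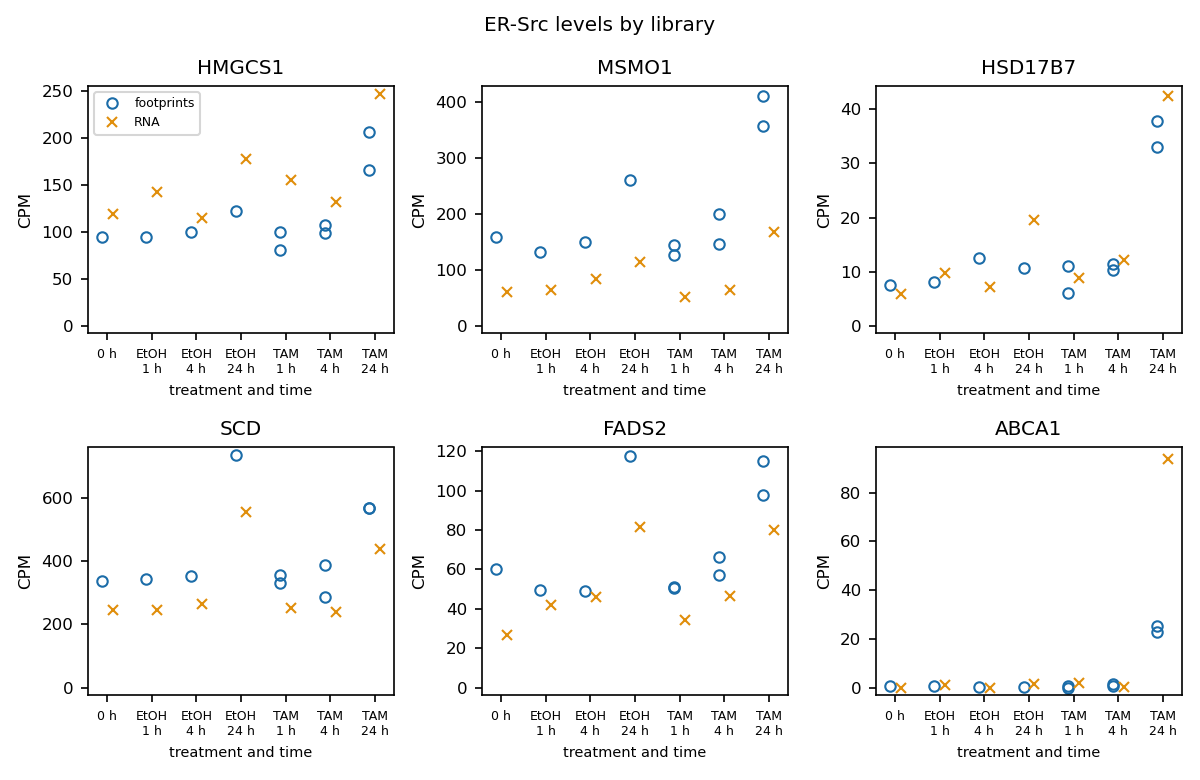
CPM of HMGCS1, MSMO1, HSD17B7, SCD, FADS2 and ABCA1 (vertical axes, separate scales) in each ER-Src cycloheximide library (blue circles) and RNA library (orange crosses), by treatment and time, with the uninduced libraries before TAM. SCD is highest at EtOH 24 h in both assays, at 734 CPM in footprints and 556.2 CPM in RNA, and ABCA1 is above 20 CPM at TAM 24 h and nowhere else.

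Ribosome loading, the change in footprints beyond the change in RNA, was tested as an interaction term. For EtOH 24 h 0 of 29 genes were called, where 0.018% of all genes tested were, and for TAM 24 h 0 of 29, where 0.665% were. Without adjustment 0 were higher and 1 was lower at p under 0.05 in each, and DESeq2 called 0 in both. The medians were -0.10 for EtOH 24 h and -0.13 for TAM 24 h, against 0.04 and 0.003 over all genes. The gene below 0.05 without adjustment was HSD17B7 for EtOH 24 h, at -1.15 ± 0.51, and EBP for TAM 24 h, at -0.55 ± 0.22 (SE). With 1 RNA library per agent, the interval for SCD was -0.47 to 0.45 for EtOH 24 h and -0.52 to 0.32 for TAM 24 h. ABCA1 loading for TAM 24 h was -2.52 with an interval from -5.19 to 0.002, and its control RNA libraries held 3 counts in all.

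Harringtonine footprints of the ER-Src cells had 1 library per time and no EtOH control, so they are described without a test. ABCA1 had 0, 0, 12.5 and 78.9 CPM at 0, 1, 4 and 24 h of TAM. MSMO1 had 129.2, 120.7, 125.1 and 378.9 CPM and HMGCS1 151.7, 114.3, 156.3 and 228.9 CPM at the same times. These 3 were highest at 24 h. At 24 h against 0 h, with a pseudocount of 1, 9 of the 29 genes with at least 10 CPM in either library were up at least 2-fold and 1 was down, where 17.8% and 12.3% of all such genes were. The median log2 ratio was 0.86 over sterol and -0.19 over fatty acid genes at that level, against 0.02 over all such genes. FASN had 1972, 1906, 2614 and 1724 CPM and ACLY had 910.1, 933.8, 825.3 and 555.3 CPM at these times. ABCG1 had 61.8, 25.4, 18.8 and 13.2 CPM, and each of these genes was lowest at 24 h. The ABCG1 values rest on 11, 4, 3 and 5 counts, and that of ABCA1 at 4 h on 2 counts. HSD17B7, among the 9 genes up at 24 h, had 0 counts at 0 h and 4 at 24 h. INSIG1 and MVD, also among the 9, had 1 and 2 counts at 0 h and 18 and 14 at 24 h.

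Other lipid genes, a list of 27 symbols in the files, were compared in the same fits. In TAM 24 h footprints 5 of 27 were called higher and 4 lower, where 11.1% and 8.28% of all genes tested were, among them NPC1, which moves cholesterol out of lysosomes, with 269.7 and 294.8 CPM at TAM 24 h, 85.0 CPM at EtOH 24 h and 83.1, 69.0 and 89.2 CPM in the other uninduced libraries. NPC1, like HSD17B7, had footprints that were high at TAM 24 h and within the range of the other uninduced libraries at EtOH 24 h, with changes of 1.82 ± 0.14 against the other uninduced libraries and 1.73 ± 0.20 against EtOH 24 h (SE). GPAM, a glycerol phosphate acyltransferase, changed by -1.61, TMEM97, a sterol-responsive membrane protein, by -1.15, ELOVL1, an elongase, by -0.71 and ACSS2, an acetyl-CoA synthetase, by 0.90. In EtOH 24 h footprints 1 of 27 was called higher and 0 lower, where 0.392% and 0.296% of all genes were. It was LPIN1, a phosphatidate phosphatase, with 57.4 CPM at EtOH 24 h against 25.7, 26.0 and 26.4 CPM and a change of 1.14 ± 0.25 (SE, edgeR quasi-likelihood adjusted p = 0.0499). In EtOH 24 h RNA 2 of 27 were called higher and 0 lower, where 1.31% and 1.57% were, LPIN1 by 0.93 and ACSS2 by 1.51. In TAM 24 h RNA 5 were called higher and 3 lower, where 8.95% and 6.06% were, with NPC1 at 1.91 and GPAM at -1.24. Directly between the agents, TAM 24 h against EtOH 24 h, 2 of 27 were called higher and 1 lower in footprints, where 5.57% and 1.97% of all genes were. In RNA 1 was called higher, NPC1 at 1.66, and 1 lower, GPAM at -1.12, where 4.37% and 1.38% were.

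In the BJ lines, EL cells had more footprints than EH cells on 10 of the 16 sterol genes tested and fewer on 3 of the 7 fatty acid genes. Of 28 genes tested 12 were called higher in EL and 4 lower, where 19.1% of all genes tested were called higher and 22.4% lower. Sterol genes were called 10 higher and 0 lower of 16, also without adjustment, and fatty acid genes 1 higher and 3 lower of 7. The median was 0.25 over the 28, 0.38 over sterol and -0.20 over fatty acid genes, against -0.006 over all genes. ELR against EL then gave 2 higher and 12 lower of 28, where 17.4% and 18.7% of all genes were called, with sterol genes 0 higher and 6 lower of 16 and a median of -0.20 over the 28, against -0.01 over all genes. Without adjustment 1 sterol gene was higher and 6 were lower in ELR. The 2 comparisons share the EL libraries. ELR against EH gave 8 higher and 4 lower of 28, where 25.5% and 27.8% were called, with sterol genes 7 higher and 1 lower. Summed CPM of the sterol genes were 1106 and 1127 in ELR, 1258 and 1270 in EL, and 928.5 and 901.6 in EH, and those of fatty acid genes were 858.4 and 845.0 in ELR, 855.0 and 879.4 in EL, and 1013 and 1030 in EH. Fibroblast markers, whose part in these results was not tested, summed to 11090 to 11350 CPM in ELR, 16230 to 16260 CPM in EL and 44030 to 44880 CPM in EH.

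ACAT2 (NM_005891, chromosome 6, 160183077 to 160200144) had 154.7 and 145.2 CPM in ELR, 191 and 198.9 CPM in EL and 72.4 and 62.0 CPM in EH. All 3 lines were separate, with EL highest. The change was 1.52 ± 0.11 for EL over EH (SE, edgeR quasi-likelihood adjusted p = 1.25e-19), -0.37 ± 0.08 for ELR over EL and 1.15 ± 0.12 for ELR over EH. IDI1 had 48.4 and 56.1 CPM in ELR, 84.3 and 69.3 CPM in EL and 35.5 and 31.5 CPM in EH, also separate with EL highest. Its changes were 1.20 ± 0.17 for EL over EH, -0.58 ± 0.13 for ELR over EL and 0.62 ± 0.18 for ELR over EH (SE). HMGCS1 had 24.4 and 21.6 CPM in ELR, 43.1 and 39.9 CPM in EL and 30.3 and 26.1 CPM in EH. Here ELR was the lowest line, at -0.84 ± 0.18 against EL, while its -0.29 ± 0.23 against EH was not called (SE). FDPS had 253.8 and 261.9 CPM in ELR, 237.1 and 245.1 CPM in EL and 217.2 and 183.4 CPM in EH, so EH was lowest and ELR did not fall below EL. PMVK and MVD were called in none of these 3 comparisons, and MVK was higher than in EH by 0.83 in EL and 0.76 in ELR.

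Late in the pathway, DHCR7 had 54.5 and 43.2 CPM in ELR, 52.6 and 58.0 CPM in EL and 30.3 and 32.4 CPM in EH. ELR and EL overlapped and both lay above EH, by 0.67 ± 0.19 for ELR and 0.82 ± 0.18 for EL (SE). FDFT1 had 141.7 and 151.7 CPM in ELR, 195.1 and 203.4 CPM in EL and 165.5 and 161.8 CPM in EH. The 3 lines were separate, with ELR lowest, at -0.45 ± 0.08 against EL (SE, edgeR quasi-likelihood adjusted p = 1.72e-06). NSDHL had 67.1 and 61.5 CPM in ELR, 50.7 and 57.5 CPM in EL and 39.1 and 37.8 CPM in EH, the lines separate with ELR highest and a change of 0.75 ± 0.17 for ELR over EH (SE). HSD17B7 had 28 counts in ELR, 24 in EL and 3 in EH, a ratio of 5.14 (95% counting interval 1.59 to 26.4) for ELR over EH and of 4.07 (1.24 to 21.1) for EL over EH. LSS, with -0.45 for ELR over EH, was the single late gene called lower in that comparison. MSMO1 had 44.96 and 45.9 CPM in ELR, 55.6 and 60.7 CPM in EL and 36.9 and 33.3 CPM in EH, separate with EL highest. EBP and SQLE were called in none of the 3.

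INSIG1 had 9.14 and 8.64 CPM in ELR, 19.7 and 19.5 CPM in EL and 4.43 and 9.89 CPM in EH. EL was above both other lines, which overlapped, with a change of 1.5 ± 0.35 for EL over EH and of -1.13 ± 0.28 for ELR over EL (SE). STARD4 had 3.81 and 7.56 CPM in ELR, 15.9 and 15.9 CPM in EL and 6.65 and 11.7 CPM in EH. It was again highest in EL, with -1.55 ± 0.34 for ELR over EL (SE, edgeR quasi-likelihood adjusted p = 0.00012) and 0.82 ± 0.36 for EL over EH, which was not called. SREBF1 had 40.0 and 50.2 CPM in ELR, 54.8 and 54.8 CPM in EL and 65.0 and 66.5 CPM in EH. Its levels were ordered ELR, EL, EH from low to high, and ELR over EH, at -0.57 ± 0.16 (SE), was called. SREBF2 was not called in any of the 3.

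Among fatty acid genes the members did not move together. SCD had 54.5 and 45.4 CPM in ELR, 81.3 and 73.4 CPM in EL and 39.9 and 43.1 CPM in EH, separate and highest in EL. Its changes were 0.91 ± 0.16 for EL over EH and -0.62 ± 0.12 for ELR over EL (SE). FASN (NM_004104, chromosome 17, 80036214 to 80056170) had 290.3 and 294.8 CPM in ELR, 170.9 and 177.6 CPM in EL and 254.1 and 256.2 CPM in EH. EL was thus the lowest line for FASN, with -0.55 ± 0.08 for EL over EH (SE, edgeR quasi-likelihood adjusted p = 1.94e-08) and 0.75 ± 0.07 for ELR over EL (SE, adjusted p = 1.64e-15 by the same edgeR test). FADS2 had 23.6 and 19.98 CPM in ELR, 74.5 and 77.5 CPM in EL and 131.5 and 118.7 CPM in EH. It was lower at each step, at -0.73 ± 0.12 for EL over EH and -1.78 ± 0.15 for ELR over EL, and at -2.50 ± 0.15 for ELR over EH (SE, edgeR quasi-likelihood adjusted p = 9.46e-24). FADS1, its neighbour on chromosome 11 on the other strand, had -0.48 for ELR over EL and was called in no other pair, and 142 exon bases of FADS1 and FADS2 overlap. ACLY had 383.7 and 383.3 CPM in ELR, 409.2 and 433.6 CPM in EL and 466.1 and 501.6 CPM in EH, separate, with -0.33 ± 0.06 for ELR over EH (SE, edgeR quasi-likelihood adjusted p = 2.11e-06). ACACA and ELOVL6 were called in none of the 3.

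ABCA1 had 22.9 and 29.7 CPM in ELR, 5.67 and 4.53 CPM in EL and 28.8 and 24.3 CPM in EH. EL stood below both other lines, which overlapped, at -2.36 ± 0.32 for EL over EH (SE, edgeR quasi-likelihood adjusted p = 3.12e-09), while ELR over EL was 2.31 ± 0.29 (SE, edgeR quasi-likelihood adjusted p = 2.14e-10) and ELR over EH -0.05 ± 0.23 (SE). In the BJ footprints the line with the most sterol-gene footprints thus had the fewest on ABCA1, whereas at TAM 24 h in ER-Src cells both were high.
With DESeq2, or with the spread between ER-Src libraries in place of their own, the counts of called genes were 9 and 10 for EL over EH, 8 and 8 for ELR over EL and 7 and 7 for ELR over EH. Without the first ELR replicate ELR over EL had 9 calls.

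**Figure D4:**
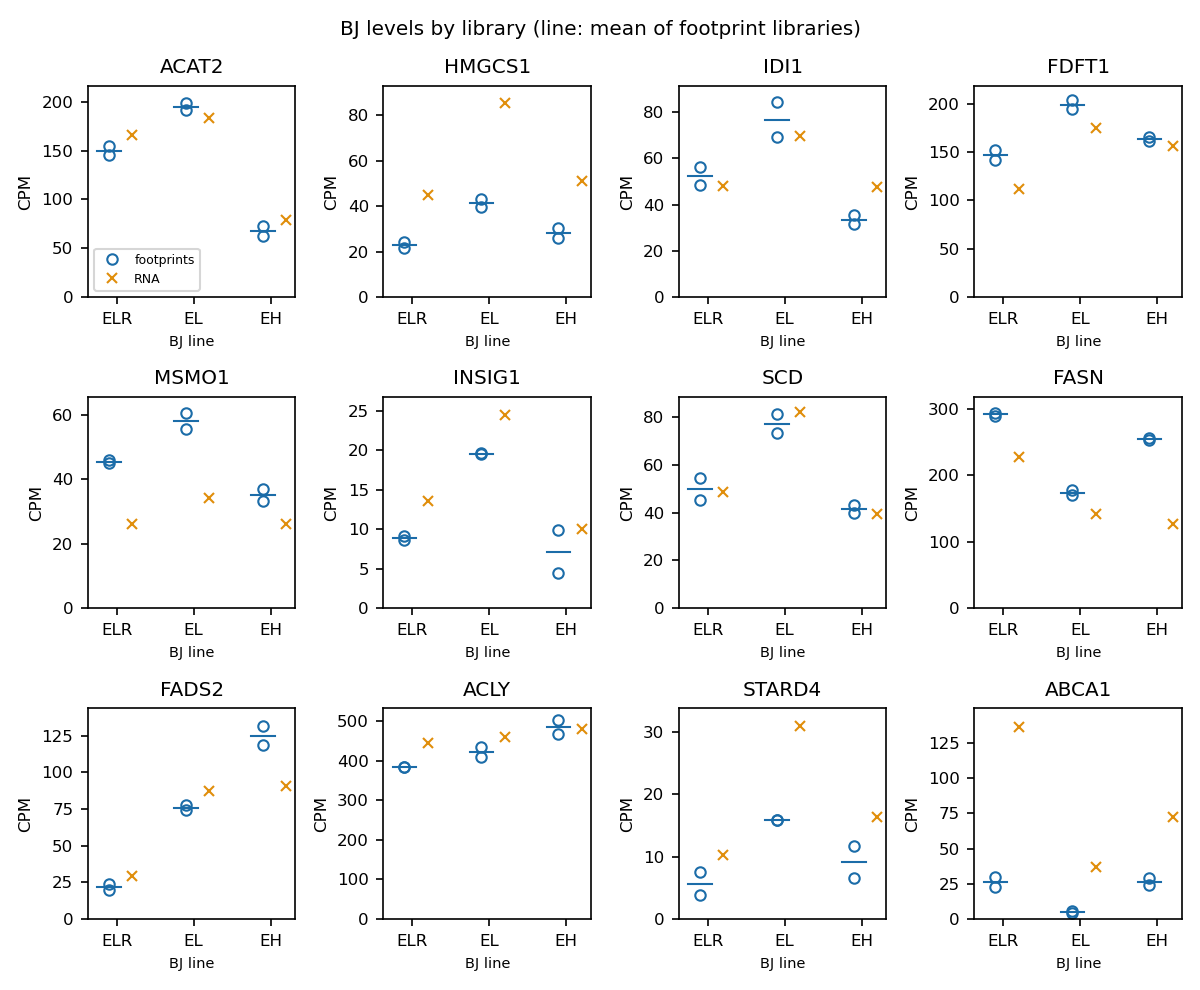
CPM of 12 genes (vertical axes from 0, separate scales) in ELR, EL and EH fibroblasts, in each cycloheximide library (blue circles, with a line at their mean) and in the RNA library (orange crosses). ACAT2, HMGCS1, IDI1, FDFT1, MSMO1, INSIG1, SCD and STARD4 are highest in EL footprints, FASN and ABCA1 are lowest there, and FADS2 and ACLY are ordered ELR, EL, EH from low to high.

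Harringtonine libraries of the BJ lines were shallower, and 14 of the 30 genes passed the filter on low counts. EL over EH gave 2 called higher and 1 lower of 14, where 7.57% and 11% of all genes tested were called, and 6 higher and 1 lower without adjustment. ELR over EL gave 2 higher and 0 lower, where 6.39% and 9.91% were, and 2 higher and 2 lower without adjustment. ELR over EH gave 4 higher and 1 lower, where 13.3% and 17.4% were, and 6 higher and 1 lower without adjustment. FASN had 2579 and 2773 CPM in ELR, 2076 and 1954 CPM in EL and 1074 and 1356 CPM in EH, the 3 lines separate. Its changes were 0.74 ± 0.11 for EL over EH, 0.41 ± 0.08 for ELR over EL and 1.15 ± 0.10 for ELR over EH (SE, edgeR quasi-likelihood adjusted p = 1.61e-27). FASN was therefore higher in EL than in EH under harringtonine and lower under cycloheximide, and the difference between drugs was not tested. ABCA1 had 153.3 and 144.7 CPM in ELR, 50.3 and 25.4 CPM in EL and 107.4 and 159.5 CPM in EH, lowest in EL as under cycloheximide. Its changes were -1.78 ± 0.49 for EL over EH and 1.95 ± 0.42 for ELR over EL (SE). ACAT2 had 105.7 and 135.1 CPM in ELR, 144.7 and 139.5 CPM in EL and 44.7 and 9.97 CPM in EH, with 2.30 ± 0.54 for EL over EH (SE). NSDHL and ACACA were called higher and SREBF1 lower in ELR over EH, with changes of 2.10, 0.69 and -1.05. FDPS at 0.51 and FDFT1 at -0.46 were not called. In the EH libraries NSDHL held 2 and 1 counts and ACAT2 held 5 and 1, so the changes of NSDHL and ACAT2 over EH rest on few reads.
DESeq2 called 1 gene in each of these comparisons, and ELR over EH had 3 calls without the first EH replicate, 2 without the first ELR replicate and 2 without the second EH replicate. With total-count scaling, which moved the median of all genes from 0.009 to 0.28, EL over EH had 5 higher and 1 lower.

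BJ RNA had 1 library per line, so RNA ratios have no replicate check. The median log2 ratio over the 30 genes was 0.19 for EL over EH, -0.14 for ELR over EL and 0.06 for ELR over EH. For EL over EH 4 of the 24 genes with at least 10 CPM in either library were up at least 2-fold and 0 down, namely ACAT2, EBP, INSIG1 and SCD, where 5.46% and 8.02% of all such genes were, and with a pseudocount of 5 in place of 1 only ACAT2 was. For ELR over EL 1 of 26 was up (ABCA1) and 2 were down (STARD4 and FADS2), where 3.53% and 6.73% were. For ELR over EH 1 of 26 was up (ACAT2) and 1 down (FADS2), where 6.83% and 12.1% were. ABCA1 RNA was 136.1 CPM in ELR, 36.9 CPM in EL and 72.2 CPM in EH, lowest in EL as in footprints. FASN RNA was 227.2 CPM in ELR, 141.6 CPM in EL and 126.2 CPM in EH, so that EL was not the lowest line in RNA. FADS2 RNA was 29.1 CPM in ELR, 87.2 CPM in EL and 90.5 CPM in EH, low in ELR and close in the other lines. EBP RNA was 30.6 CPM in ELR, 31.8 CPM in EL and 15.1 CPM in EH.

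Ribosome loading was called lower in EL than in EH for 4 of 29 genes and higher for 0, where 2.92% of all genes tested were called lower and 3.78% higher. Without adjustment 1 was higher and 5 were lower, and DESeq2 called 0 higher and 1 lower. FASN loading was lower, at -0.71 ± 0.15 (SE, edgeR quasi-likelihood adjusted p = 0.000423), FADS2 by -0.66 ± 0.19, ABCA1 by -1.38 ± 0.39 and EBP by -1.09 ± 0.33 (SE). For FASN the footprints changed in EL by -0.55 while RNA had a log2 ratio of 0.16, and for ABCA1 footprints changed by -2.36 and RNA had -0.95. ELR over EH gave 0 higher and 3 lower, where 3.22% and 4.26% were called, namely FASN at -0.69 ± 0.13, FADS2 at -0.90 ± 0.26 and ABCA1 at -1.0 ± 0.28 (SE). Without adjustment 2 were higher and 6 lower there, and DESeq2 called 0 higher and 1 lower. ELR over EL gave 0 calls, where 2.97% of all genes were called, with 0 higher and 1 lower without adjustment and 0 by DESeq2. The sterol gene IDI1, with loading of 0.66 ± 0.26 for EL over EH (SE), and the regulator SREBF1, at -0.45 ± 0.27, were not called. Each line has 1 RNA library, which was assumed to vary like the footprints. Without the first EH footprint library, EL over EH had 2 calls and ELR over EH had 1.

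**Figure D5:**
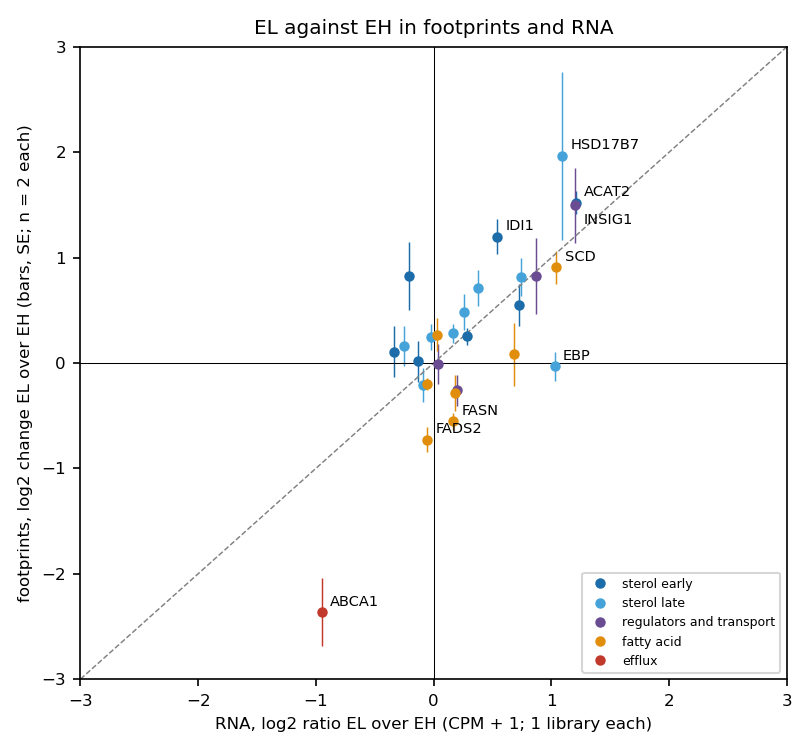
Log2 change of EL over EH in cycloheximide footprints (vertical axis, 2 libraries each, bars give the SE) against the log2 ratio of EL over EH in RNA (horizontal axis, 1 library each, pseudocount 1) for the 28 genes tested, coloured by role; the dashed line marks equal change. ABCA1, FASN, FADS2 and EBP, whose loading was called lower, lie below the line, with ABCA1 at -2.36 in footprints and -0.95 in RNA.

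Of the other lipid genes, EL over EH footprints had 1 called higher and 8 lower of 25 tested, where 19.1% and 22.4% of all genes were called. NPC1 was lower, at -1.08, as was VLDLR, a lipoprotein receptor, at -1.23. ELR over EL had 5 higher and 8 lower of 25, where 17.4% and 18.7% were. SCARB1, a receptor for high-density lipoprotein, had 99.5 and 105.8 CPM in ELR, 38.2 and 39.4 CPM in EL and 28.1 and 38.6 CPM in EH, so ELR stood above both other lines by 1.40 ± 0.12 over EL and 1.63 ± 0.16 over EH (SE). NCEH1, a cholesteryl ester hydrolase, rose by 1.06 and ACSS2 by 1.08 in ELR over EL. ELR over EH had 4 higher and 9 lower of 25, where 25.5% and 27.8% were. Loading was called lower for 1 of 27 in EL over EH, where 2.92% of all genes were, and for 2 of 27 in ELR over EH, where 4.26% were. In ELR over EL it was called for 2 of 27, both lower, where 2.97% of all genes were called in either direction. NPC1 loading was lower, at -1.11 ± 0.22 for EL over EH and -0.90 ± 0.21 for ELR over EH (SE).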

How the data were processed

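The data are 36 libraries of MCF10A-ER-Src and BJ cells, 21 and 15 of them. The deposited files give raw counts of reads per transcript, made by the authors. Reads were aligned with TopHat to hg19, per the submitters' processing notes, and the counting program, its strand setting and its handling of multiply mapped reads are not given in the sources used here. Ribosomes were held with cycloheximide (100 µg/ml, 90 s) or harringtonine (2 µg/ml, 5 min), per the labels.

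Each file lists 36499 transcripts. For each of 19137 symbols, 1 transcript was kept, that with the greatest mean count. Positions printed beside a transcript are the span of the whole gene in GENCODE on GRCh37, not of that transcript. The 30 genes, the gene lists and the comparisons were chosen with earlier results of these data known. Counts were tested across all genes, separately for each cell model and assay, with edgeR 4.0.16 (quasi-likelihood test, TMM scaling, filterByExpr with a minimum count of 10 and a total of 15) in R 4.3.3, and p-values were adjusted over all genes by Benjamini-Hochberg in each of 19 comparisons. A call is an adjusted p under 0.05. Loading is the interaction of assay and group. An arm with 1 library was assumed to vary like the others. CPM are counts per 1000000 of the library size after TMM scaling. The limits given for a count of 0 use library totals without that scaling. Single-library ratios used log2(CPM + 1). Intervals are at 95%. Values in every library were given for up to 8 called genes with the smallest adjusted p in a comparison and for at least 1 gene of each role, and up to 5 other lipid genes were named per comparison by the smallest adjusted p. Genes given beyond that rule were chosen after their values were seen.

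The alternatives were RLE and total-count scaling, no filter, DESeq2 1.42.0, another transcript choice, a replicate block on the footprint libraries, the ER-Src spread for BJ footprints, all 4 uninduced libraries as 1 arm, other pseudocounts and leaving out each library. The edgeR fits were tested on simulated data with 200 changed genes. Python 3.11.15, pandas 2.3.3, numpy 2.4.6, scipy 1.17.1 and matplotlib 3.10.9 were used for the rest. Some items are not reported here.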

Additional observations from a re-analysis of the deposited data

Results flagged for a closer look

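Among the 4 uninduced ER-Src libraries of an assay, a gene was marked where the gap between 1 library and its nearest neighbour took up a larger share of the whole range than Dixon's test allows at the 95% level. In footprints the EtOH 24 h library stood high in this way for SCD (gap share 0.957), FASN (0.899), DHCR7 (0.894), CYP51A1 (0.867), FADS2 (0.834) and HMGCS1 (0.833). In RNA it stood high for SQLE (0.945), SCD (0.939), FASN (0.847) and DHCR7 (0.845). SCD, FASN and DHCR7 were marked in both assays. Chance marks about 1 in 20 groups. Of all genes with a mean of at least 10 CPM, 5.4% were marked in footprints and 5.93% in RNA, and EtOH 24 h was the high library for 1.2% and 1.82%. Of the 27 lipid genes examined, 6 were marked in footprints and 4 in RNA, each with EtOH 24 h high.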

How the results depend on the processing

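Of 1391 repeats of single-gene calls under alternative settings, 1187 kept the direction and the call, 204 kept the direction and lost the call, and 0 reversed. The counts of called genes that moved by more than 1.5 times are given here, and the cause was not tested. With DESeq2, 9 genes were called for EL over EH, 8 for ELR over EL and 7 for ELR over EH in cycloheximide footprints, 1 in each harringtonine comparison, 3 for EtOH 24 h RNA, 9 for TAM 24 h RNA, 1 for TAM 24 h against EtOH 24 h RNA, and 1 each for loading of EL over EH and of ELR over EH. With the ER-Src spread the BJ counts were 10, 8 and 7. Total-count scaling gave 6 for EL over EH harringtonine, 7 for EtOH 24 h footprints and 5 for ELR over EH loading, and no filter gave 3 for ELR over EH harringtonine and 7 for EtOH 24 h footprints. Pooling the 4 uninduced libraries gave 10 for TAM 24 h footprints and 5 for TAM 24 h RNA. With a pseudocount of 5, 1 of all 30 genes was up at least 2-fold in BJ RNA for EL over EH, in place of 6, and for ELR over EH 1 was up and 1 down.

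Leaving out 1 library at a time gave 11 to 15 calls for EL over EH, 9 to 14 for ELR over EL and 8 to 12 for ELR over EH footprints, 2 to 3, 2 to 2 and 2 to 5 under harringtonine, and 2 to 4, 0 to 0 and 1 to 4 for loading. It gave 2 to 5 for EtOH 24 h footprints, 14 to 19 for TAM 24 h footprints, 2 to 3 for TAM 24 h against EtOH 24 h footprints, and 0 to 14, 9 to 18 and 1 to 6 for the same comparisons in RNA. TAM 1 h, TAM 4 h and the ER-Src loading comparisons kept 0 calls.

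Same-numbered libraries of different arms deviated together with r of -0.007 to 0.062 in BJ and -0.033 to 0.223 among the TAM arms of ER-Src. The replicate numbers were therefore not taken to pair them. The uninduced ER-Src libraries were not part of this check, so it does not exclude a difference between replicate numbers there. With a replicate block, EtOH 24 h footprints had 8 calls, TAM 24 h footprints 20 and ELR over EH loading 4, and the counts of the other comparisons with such a fit did not move.

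Total-count scaling moved the median of all genes to 0.13 for EL over EH footprints, 0.28 and 0.40 for EL and ELR over EH harringtonine, -0.14 for TAM 24 h RNA and 0.15 for TAM 24 h loading. It moved the share of all calls that were higher to 60.7% from 46% for EL over EH footprints, to 70.5% from 56.9% for EtOH 24 h footprints (34.5% with DESeq2), to 62.6% from 73.9% for TAM 24 h against EtOH 24 h footprints, to 40.8% from 59.6% for TAM 24 h RNA and to 53.2% from 76.1% for TAM 24 h against EtOH 24 h RNA. Under harringtonine it became 70.8% in place of 40.8% for EL over EH, 51.9% in place of 39.2% for ELR over EL and 72.8% in place of 43.4% for ELR over EH, and for loading of EL over EH 42.3% in place of 56.4%. RLE scaling gave 60.6% in place of 34.7% for loading of ELR over EL. With total counts the sterol median became 0.05 in place of -0.04 for ELR over EL harringtonine, and the fatty acid median 0.09 in place of -0.06 for TAM 24 h loading. Depth limits the harringtonine comparisons, where 16 of the 30 genes were not tested.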
